A study of Mus musculus with 6 samples.

Results

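A set of 10 genes around the tumour suppressor p53 and the brakes on cell division were followed in regulatory T cells from bone marrow with and without myeloma: Trp53, Mdm2, Cdkn1a, Cdkn1b, Plk2, Ccng1, Gadd45a, Gadd45b, Phlda3 and Sesn1. All 10 were found by name among the 47643 genes of the tables, and all 10 were among the 13235 genes with enough counts to be tested. They were chosen by name with the myeloma-minus-control differences of these same libraries known, Plk2 having one of the largest decreases, so their differences are a description and support nothing by themselves. The set mixes transcriptional targets of p53 with genes that slow division in other ways.

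The cells were CD4+ T cells with a GFP reporter of FOXP3, the factor that defines regulatory T cells, sorted from mouse marrow. One group of 3 libraries (myeloma replicates 3, 4 and 5, labelled MM3, MM4 and MM5) came from mice injected with Vk*MYC cells, a transplantable mouse myeloma, and the other group of 3 (control replicates 1, 3 and 5, labelled CT1, CT3 and CT5) from control mice. Age, sex and strain are not stated in the labels. Cells of both groups carry the reporter. Nothing ties each library to a separate mouse beyond the series design, which counts 3 marrows per group, so a p-value here reflects variation among these libraries, which may be technical. In sorted bulk RNA, fewer cells expressing a gene and less RNA per cell cannot be told apart.

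p53 is a transcription factor that is made continuously and degraded continuously through Mdm2, a ubiquitin ligase whose gene p53 itself switches on. DNA damage or other stress blocks this degradation, and p53 then raises genes that halt the cell cycle (Cdkn1a, which encodes p21), check growth signalling (Sesn1, Phlda3), feed back on p53 (Mdm2, Ccng1) or signal stress (Gadd45a, Plk2). Since p53 is controlled mainly as a protein, the level of its mRNA says little about its activity. Cdkn1b encodes p27, a second inhibitor of cyclin-dependent kinases, abundant in resting T cells and raised by FOXO factors.

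Libraries held 10240620 to 13314631 expected counts. Across all genes, 838 were higher and 621 lower in myeloma by edgeR's quasi-likelihood test at an adjusted p of 0.05, and with library sizes alone as scaling the split was 633 and 1004. Foxp3 lay between 991 and 1247 CPM (counts scaled to a common library size) and Cd4 between 476 and 552 CPM in all 6 libraries, so the defining markers of the sorted cells were present in each. Summed levels of 9 plasma cell markers were 1377 to 2642 CPM in myeloma against 1193 to 1294 CPM in controls (3 of 8 tested genes higher, none lower). Much of each sum was Ighm, at 1098 to 1253 CPM in myeloma and 996 to 1105 CPM in controls. Igkc was at 96.0, 408 and 919 CPM in MM3, MM4 and MM5 against 29.7 to 61.7 CPM in controls. Jchain was at 37.7, 118 and 199 CPM against 0.60 to 3.70 CPM. The 8 neutrophil markers summed to 139 to 470.4 against 64.0 to 185 CPM (none of 8 called). The 7 NK cell markers summed to 23.5 to 47.1 against 8.42 to 11.3 CPM (2 of 3 tested genes higher), most of the myeloma sum from Nkg7 (19.1 to 39.3 against 4.94 to 8.58 CPM), which activated T cells also express. The 2 CD8 T cell markers summed to 13.5 to 22.4 CPM against at most 13.8 CPM. The 8 stromal and endothelial markers summed to 128 to 163 against 173 to 203 CPM (1 of 4 tested genes lower, none higher). Most of each sum was Pecam1 (118 to 127 against 165.5 to 195 CPM), which T cells also express. Col1a1 was at 2.71, 3.97 and 14.7 CPM in MM3, MM4 and MM5 against 1.20 to 2.90 CPM. Col1a2 (2.45 to 12.4 against 1.37 to 1.74 CPM) and Cxcl12 (4.15 to 7.23 against 2.69 to 3.44 CPM) were higher in each myeloma library than in any control. Lepr, Cdh5, Kdr and Emcn were at most 1.79 CPM in any library. Markers of red cells, macrophages and B cells are given beside Plk2, and the part of any of these cells in the results was not tested.

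Promoter windows of RefSeq (GRCm38.p6, 250 bases before to 50 after a start site) were on hand for all 10 genes, as 12 windows. They are shown for the 3 genes that passed the threshold as lower in myeloma, with matches to the searched motifs in capitals. The Plk2 window (plus strand, chr13:110394794-110395093) holds 1 cyclic AMP response element (CRE, TGACGTCA) 62 to 55 bases before the start, and the Gadd45a window (minus strand, chr6:67037358-67037657) holds 1 p53 half-site 40 to 31 bases before the start. The Cdkn1b window (plus strand, chr6:134920151-134920450) holds no match.
Plk2: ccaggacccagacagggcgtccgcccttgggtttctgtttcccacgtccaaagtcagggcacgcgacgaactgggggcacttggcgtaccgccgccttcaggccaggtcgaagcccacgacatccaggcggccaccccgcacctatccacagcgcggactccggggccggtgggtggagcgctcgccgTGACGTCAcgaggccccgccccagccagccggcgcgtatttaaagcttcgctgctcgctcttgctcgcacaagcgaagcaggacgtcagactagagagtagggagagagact
Gadd45a: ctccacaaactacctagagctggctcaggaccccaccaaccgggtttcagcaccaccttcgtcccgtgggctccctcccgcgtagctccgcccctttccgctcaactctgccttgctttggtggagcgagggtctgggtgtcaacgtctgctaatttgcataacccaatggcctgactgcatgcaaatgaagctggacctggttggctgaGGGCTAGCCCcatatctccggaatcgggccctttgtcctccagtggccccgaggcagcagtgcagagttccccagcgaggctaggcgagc
Cdkn1b: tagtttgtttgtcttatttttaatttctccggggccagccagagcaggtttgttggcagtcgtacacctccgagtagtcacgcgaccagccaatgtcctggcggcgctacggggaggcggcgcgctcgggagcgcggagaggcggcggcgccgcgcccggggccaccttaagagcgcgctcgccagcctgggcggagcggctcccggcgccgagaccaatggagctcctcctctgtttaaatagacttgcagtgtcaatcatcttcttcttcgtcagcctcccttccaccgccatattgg

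p53 binds 2 half-sites of 10 bases each. Searched on both strands, a half-site that fits the consensus exactly occurred in 6 of the 12 windows and in 8.36% of all 32841 windows. The 6 belonged to Cdkn1a, Ccng1, Gadd45a, Mdm2, Trp53 and Sesn1. Cdkn1a and Sesn1 each had an upstream and a downstream window, from different start sites. Half-sites were in the upstream window of Cdkn1a and in the downstream window of Sesn1. A full site was counted as 2 exact half-sites with 0 to 13 bases between them. It was found in 1 of the 12 windows and in 0.0731% of all windows. That was the upstream window of Cdkn1a (chr17:29090729-29091028), with the site from 73 to 42 bases before its start. The downstream Cdkn1a window (chr17:29093519-29093818) held no match to any searched motif. Allowing at most 1 base off the consensus, 2 adjacent half-sites (20 bases) were found in 2 windows, against 0.0883% of all windows. The stretches around these adjacent pairs are shown with the 20 bases in capitals. In that of Cdkn1a the first half-site of the full site stands in lower case before them. The pair of Cdkn1a (plus strand, chr17:29090898-29090977) lies 51 to 32 bases before the upstream start. That of Ccng1 (minus strand, chr11:40755432-40755511) lies 195 to 176 bases before its start.
Cdkn1a: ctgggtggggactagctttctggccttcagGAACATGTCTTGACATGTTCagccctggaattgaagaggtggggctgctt
Ccng1: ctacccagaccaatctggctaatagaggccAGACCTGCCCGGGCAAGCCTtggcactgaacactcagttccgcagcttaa

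The CRE occurred in 1.79% of all windows and among the 10 genes in that of Plk2. The AP-1 motif TGANTCA (7.81% of all windows) and the CArG box of serum response factor (1.63%) were in none of the 12. The FOXO motif TGTTTAC (3.65%) was in the window of Mdm2 and in the upstream window of Sesn1. A match describes these letters in this window and shows no binding.

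Levels of different genes are compared in TPM, which corrects for transcript length and library total. In control libraries Cdkn1b was highest at 288 ± 13.3 TPM (SD, n = 3), followed by Sesn1 at 172 ± 13.8, Trp53 at 129.98 ± 13.4, Gadd45b at 105 ± 53.1, Ccng1 at 91.5 ± 7.54, Mdm2 at 89.3 ± 6.49 and Gadd45a at 54.1 ± 13.3 TPM. Plk2 (22.8 ± 14.4), Cdkn1a (7.40 ± 4.32) and Phlda3 (5.20 ± 1.13 TPM) were lowest. The ranges of the 3 control libraries overlapped between neighbours in this order from Trp53 down to Mdm2, between Gadd45a and Plk2, and between Cdkn1a and Phlda3. In myeloma the order differed in the place of Plk2, which had the lowest mean at 1.79 ± 2.15 TPM with a range that overlapped that of Phlda3 (3.76 ± 1.94 TPM), and in Ccng1 (79.7 ± 6.19 TPM) standing just above Gadd45b (79.2 ± 6.62 TPM), with overlapping ranges. TPM means were lower in myeloma for all 10 genes, but the median log2 ratio of mean TPM over all genes tested was -0.23, so differences between groups are given below on the CPM scale with TMM scaling, where the median over all genes was 0.02.

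**Figure D1:**
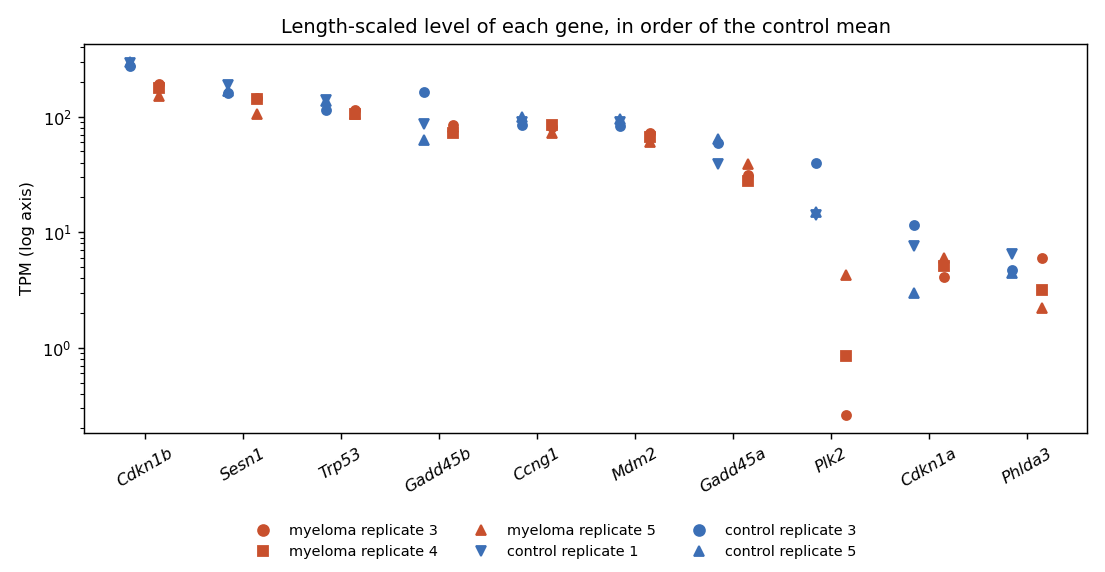
Length-scaled level (TPM, log axis) of the 10 genes in each of 3 control (blue) and 3 myeloma (orange) libraries, 1 point per library, ordered by the control mean. Cdkn1b is highest in every library, and Plk2 has the eighth highest mean in controls (13.98 to 39.47 TPM) and the lowest mean in myeloma (0.26 to 4.25 TPM), where MM5 has more Plk2 (4.25 TPM) than Phlda3 (2.20 TPM).

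Of the 10 genes, 3 passed the threshold as lower in myeloma (Plk2, Gadd45a and Cdkn1b), none as higher, and 7 did not pass. Over all genes tested 4.69% passed as lower, 6.33% as higher and 11% in either direction. For the same 3 genes no myeloma value reached the control range, a separation seen in 33.3% of all genes. The median log2 fold change of the 10 was -0.21, against 0.02 over all genes, and 9 of the 10 were below 0. Nothing is read from these counts, since the genes were selected on this contrast.

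**Figure D2:**
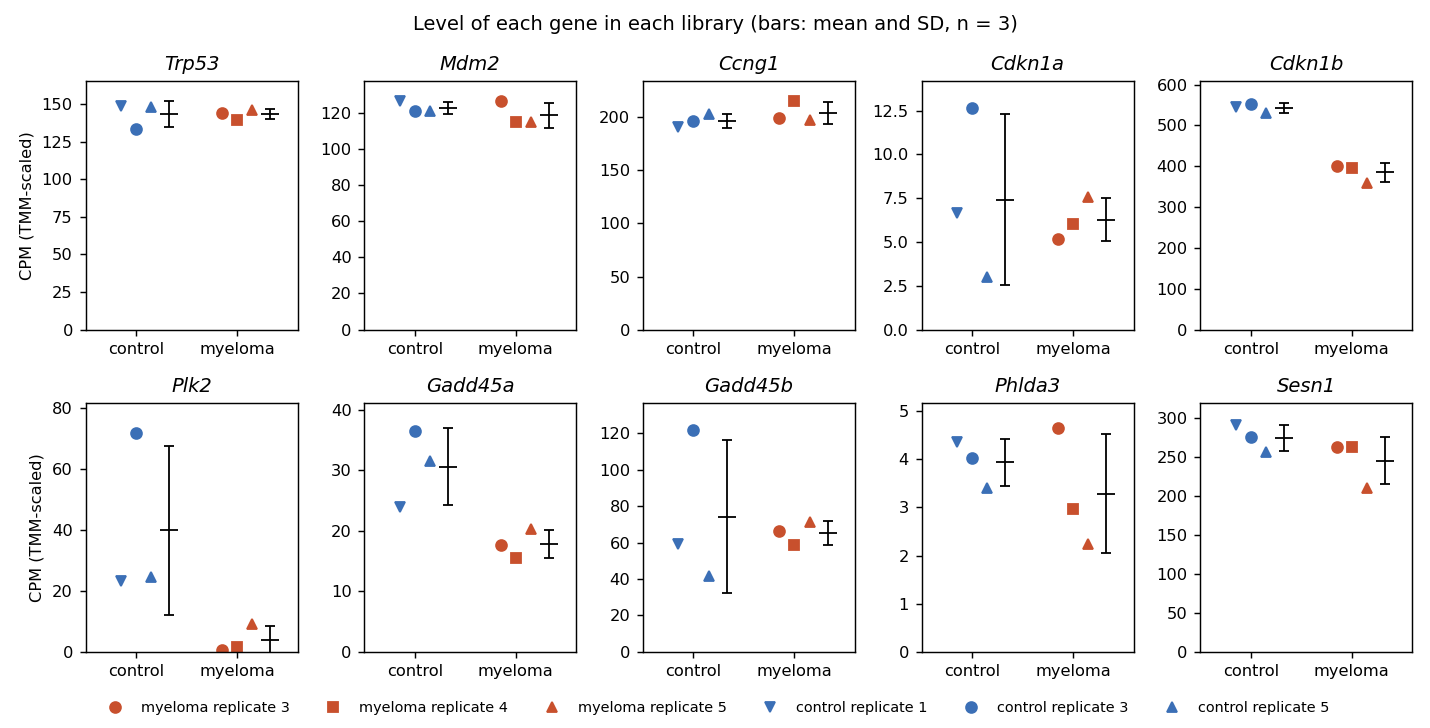
CPM (TMM-scaled counts, linear axes from 0) of each gene in each library, with the mean and SD of 3 libraries per group beside the points. Only for Plk2, Gadd45a and Cdkn1b do all myeloma points lie below all control points, and CT3 is the highest control for 5 genes (Plk2, Gadd45a, Cdkn1b, Cdkn1a and Gadd45b).

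Trp53, which encodes p53 itself (chromosome 11, 69580359 to 69591873 in GRCm38, the assembly of mm10, plus strand), had nearly equal means in the groups. Its values were 144, 139.6 and 146 CPM in MM3, MM4 and MM5 and 149, 133 and 148 CPM in CT1, CT3 and CT5. The groups overlapped fully, with means of 143 ± 3.22 and 143 ± 8.80 CPM (SD, n = 3 each) and a log2 fold change of -0.00070 (SE 0.08).

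Both genes that feed back on p53 had small differences. Mdm2 (chromosome 10, 117688875 to 117710758), the ubiquitin ligase for p53, was at 127, 115 and 115 CPM in MM3, MM4 and MM5 and at 127, 121 and 121 CPM in CT1, CT3 and CT5. Its log2 fold change was -0.05 (SE 0.08). Ccng1 (chromosome 11, 40748552 to 40755311), whose product cyclin G1 brings a phosphatase to Mdm2, was at 199, 215 and 197 CPM in myeloma and 190.5, 196 and 203 CPM in controls. It was the single gene of the 10 with a value above 0, at 0.05 (SE 0.08). Neither passed, and for both the groups overlapped.

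Cdkn1a, the p53 target that encodes the cell cycle inhibitor p21 (chromosome 17, 29090976 to 29100727), was low throughout. It had 5.16, 6.05 and 7.59 CPM in MM3, MM4 and MM5, from 61, 61 and 85 counts, and 6.63, 12.6 and 2.98 CPM in CT1, CT3 and CT5, from 85, 147 and 41 counts. The controls spanned 4.24-fold and enclosed all 3 myeloma values. Its log2 fold change of -0.24 (SE 0.47) did not pass and turned to 0.38 without CT3. A gene on the other strand shares 7.68% of its exon bases and was not used here.

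Cdkn1b, which encodes p27 (ENSMUSG00000003031.14, chromosome 6, 134920401 to 134925513, plus strand), was the most even of the 3 genes that passed. Its level was 400.4, 396 and 359 CPM in MM3, MM4 and MM5 and 546, 552 and 531 CPM in CT1, CT3 and CT5. The groups were separated by a gap far wider than the spread within either, with means of 385 ± 22.8 against 543 ± 11.1 CPM (SD, n = 3 each). The difference was 1.41-fold (log2 fold change -0.50, SE 0.08). It passed the threshold whichever library was left out, with log2 fold changes from -0.54 to -0.45. Control values varied by 2.05% (coefficient of variation), where the median over all genes, not matched for level, was 11.6%.

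Plk2, a polo-like kinase first known as a serum-inducible gene and also a p53 target (ENSMUSG00000021701.7, chromosome 13, 110395046 to 110400844, plus strand), had by far the widest difference of the 10. MM3, MM4 and MM5 held 6, 17 and 102 expected counts of it, and CT1, CT3 and CT5 held 297, 836 and 337. As CPM these were 0.51, 1.69 and 9.11 against 23.2, 71.8 and 24.5. Every myeloma library lay below every control library, but the values within myeloma spanned 17.9-fold and those within controls 3.10-fold. The fitted difference was 10.5-fold (log2 fold change -3.39, SE 0.78), the ninth lowest of 13235 genes.

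The call for Plk2 rested on several libraries together. It was lost without MM3 (log2 fold change -2.87), MM4 (-3.06), CT3 (-2.66) or CT5 (-3.66), and with limma-voom (-4.05) or robust dispersion (-3.39) on all 6 libraries. It was kept without CT1 and without MM5, where the value was -5.22. The sign was negative in each of these fits.

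Other signals also varied across these libraries, only in part in the order of Plk2. Red cell markers summed to 3843, 4767 and 4148 CPM in MM3, MM4 and MM5 and to 6711, 14730 and 10371 CPM in CT1, CT3 and CT5, with 5 of 6 tested genes lower and none higher. CT3 was thus highest for both Plk2 and the red cell markers. Macrophage markers summed to 57.9, 145 and 469 CPM in myeloma and 104, 40.5 and 76.0 CPM in controls (2 of 9 higher). The myeloma library with most Plk2 thus had most of these, but CT3, with most Plk2 of all, had least. B cell markers summed to 30.4, 44.7 and 73.9 CPM in myeloma and 49.9, 249 and 319.6 CPM in controls (5 of 10 lower). They were highest in CT5, and CT1 lay within the myeloma range. None of these markers was at 0 in all 6 libraries, and their part in the Plk2 values was not tested.

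**Figure D3:**
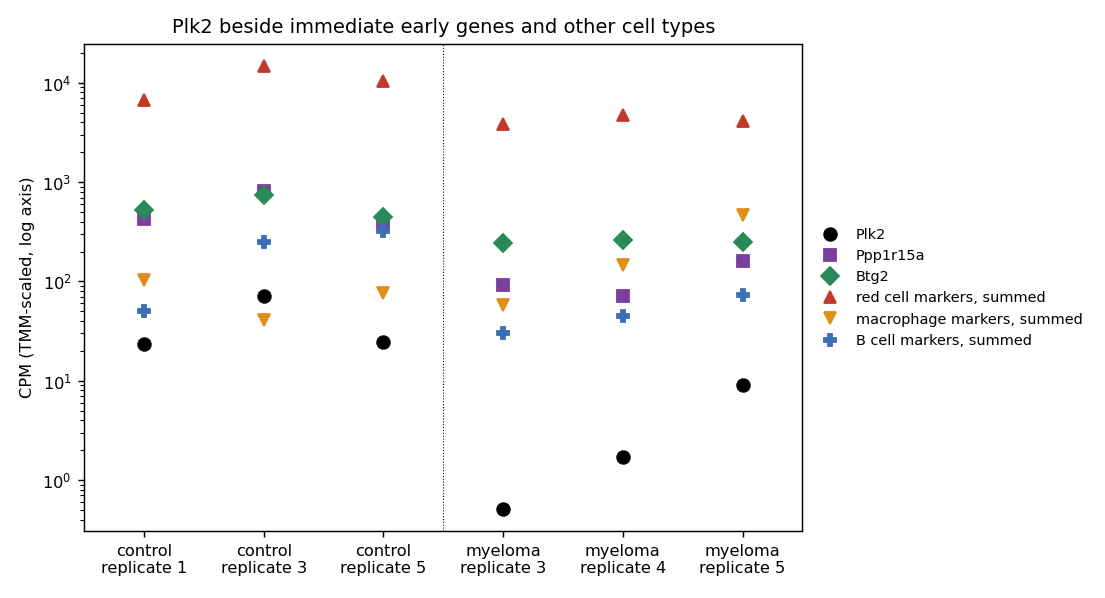
CPM (log axis) of Plk2, of the immediate early genes Ppp1r15a and Btg2, and of summed red cell, macrophage and B cell markers in each library, controls left of the dotted line. Plk2 runs from 0.51 to 9.11 CPM in myeloma and 23.2 to 71.8 CPM in controls, and CT3 is highest for Plk2, Ppp1r15a, Btg2 and the red cell markers.

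By Pearson correlation of log2 CPM over the 6 libraries, among 9551 genes whose mean reached 5 CPM, the 5 genes closest in pattern to Plk2 were Cdr2 (r = 0.996), Tlk1 (0.993), Pias1 (0.993), Scaf11 (0.990) and Otub2 (0.988). These values are a description, since the 6 points fall into 2 groups and genes of a library share its depth. The differences of these 5 genes were much smaller than that of Plk2, which does not hold for every gene with a high r. Among the immediate early genes compared, r ran from -0.80 (Nr4a3) to 0.955 (Fosb), and 38 genes had a higher r than Fosb. The log2 fold change of Fosb was -3.12 (SE 0.66). Fosb was named after its values were seen. Genes picked for following Plk2 are lower in myeloma by that choice. Their calls and adjusted p, from edgeR's test unless another tool is named, are thus a description too and support nothing. The splicing factor gene Scaf11 fell by 0.43 on the log2 scale (SE 0.10, adjusted p = 0.0286). Next, the kinase gene Tlk1 (-0.36, SE 0.11, adjusted p = 0.0641), the SUMO ligase gene Pias1 (-0.25, SE 0.10, adjusted p = 0.123), Cdr2 (-0.62, SE 0.20, adjusted p = 0.0850) and the deubiquitinase gene Otub2 (-0.93, SE 0.34, adjusted p = 0.113) did not pass. Scaf11 was no longer called without MM3 (adjusted p = 0.0796), MM4 (0.0933), CT3 (0.111) or CT5 (0.0680). Tlk1 (0.0209) and Cdr2 (0.0255) passed without MM5. With library sizes alone Tlk1 (0.0261), Cdr2 (0.0490) and Pias1 (0.0467) passed, and Tlk1 also with DESeq2 (0.0197), no filter (0.00710) and robust dispersion (0.0490).

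The Gadd45 genes encode small stress sensors that bind the cell cycle machinery and the kinase Map3k4. Gadd45a, the member that p53 controls (ENSMUSG00000036390.8, chromosome 6, 67035096 to 67037457, minus strand), was at 17.6, 15.6 and 20.3 CPM in MM3, MM4 and MM5 and at 23.9, 36.5 and 31.5 CPM in CT1, CT3 and CT5. The groups did not overlap, though MM5 and CT1 came close. The difference was 1.72-fold (log2 fold change -0.78, SE 0.18). The call was lost without MM3 (-0.78), MM4 (-0.69), CT3 (-0.64) or CT5 (-0.77), and with an offset for effective length (-0.49). The antisense gene E230016M11Rik shares 19.1% of the exon bases of Gadd45a and had 24.1 to 47.0 expected counts per library, against 157 to 434 for Gadd45a, and this library kit does not separate strands.

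Gadd45b, which cytokines and NF-kB induce (chromosome 10, 80930073 to 80932204), stood at 66.3, 58.5 and 71.4 CPM in myeloma and 59.0, 122 and 41.8 CPM in controls. The 3 myeloma values were close together and lay inside the control range, whose top was again CT3. Its log2 fold change was -0.18 (SE 0.32), which turned to 0.37 without that library, and it did not pass. Whether Gadd45a and Gadd45b differed in their response was not tested.

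Phlda3, an inhibitor of the growth kinase Akt (chromosome 1, 135766119 to 135769136), was the least abundant of the 10 in controls, with 4.66, 2.98 and 2.23 CPM in MM3, MM4 and MM5 and 4.37, 4.04 and 3.41 CPM in CT1, CT3 and CT5. These rest on 25 to 56 counts per library, and the groups overlapped (log2 fold change -0.26, SE 0.39). Sesn1, a stress-induced restraint on the growth kinase complex mTORC1 (chromosome 10, 41809935 to 41908424), was at 263, 263 and 209.9 CPM in myeloma and 290.4, 276 and 256 CPM in controls. MM5 was lowest, and the other two myeloma libraries lay within the control range (log2 fold change -0.16, SE 0.11). Neither gene passed.

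**Figure D4:**
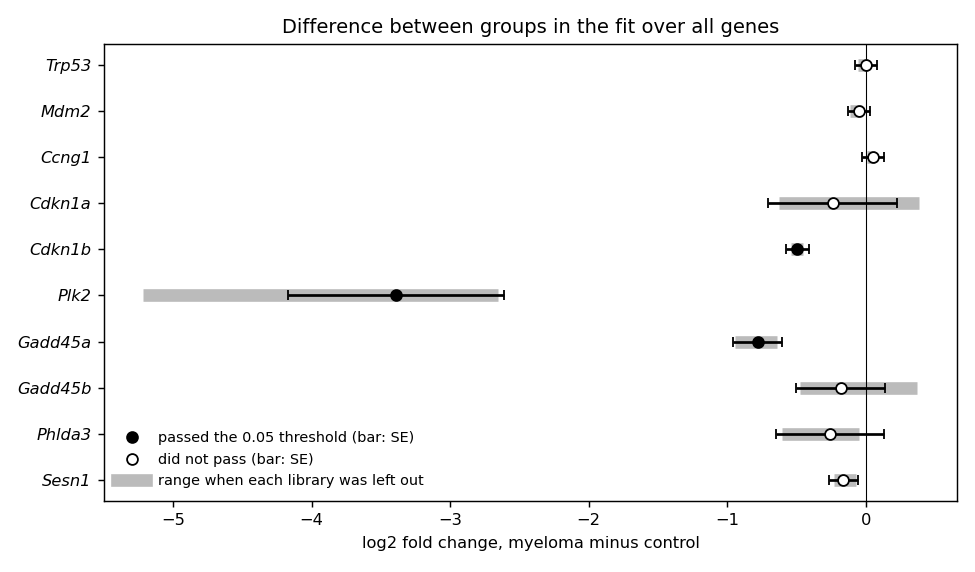
Log2 fold change (myeloma minus control) of each gene in the fit over all genes, with its SE, and in grey the range of values when each of the 6 libraries was left out. Filled points (Cdkn1b, Plk2, Gadd45a) passed the 0.05 threshold. The grey range of Plk2 runs from -5.22 to -2.66, and those of Cdkn1a (-0.63 to 0.38), Gadd45b (-0.48 to 0.37) and Trp53 (-0.053 to 0.017) cross 0.

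The genes also differed in how far replicates spread. In controls 5 of the 10 had a coefficient of variation under the all-gene median of 11.6%: Cdkn1b, Mdm2 (2.72%), Ccng1 (3.28%), Trp53 (6.14%) and Sesn1 (6.25%). These 5 had at least 1406 counts in each control library. The all-gene medians were not matched for level, and spread depends on the number of counts. Plk2 (69.6%), Cdkn1a (65.7%) and Gadd45b (56.8%) varied most, each with CT3 on top. In myeloma Gadd45b varied by 9.94% and Cdkn1a by 19.6%, while Plk2 reached 124%, where the all-gene median was 13.2%.

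Other genes of the p53 pathway were read from lists written out from general knowledge, with earlier results of these data known. Nothing is read from the counts per list. Over all genes tested 4.69% passed as lower, 6.33% as higher and 11% in either direction. Of 13 tested p53 targets with a role in cell death (Bax, Bbc3, Pmaip1, Fas and others) none passed by edgeR's test in either direction, and their median log2 fold change was 0.04. At an unadjusted p of 0.05, 1 was higher (the autophagy gene Dram1) and 1 lower (Pmaip1, which encodes the death factor Noxa). DESeq2 called Pmaip1 lower, and limma-voom called none. These 2 genes were named after their values were seen. Of 14 tested targets for arrest, repair and metabolism 1 was higher and 1 lower (median -0.07). Rps27l, a ribosomal protein paralogue, rose from 22.2 ± 1.26 to 33.2 ± 1.49 CPM (log2 fold change 0.58, SE 0.11, adjusted p = 0.0133) but was no longer called without MM4 (0.0565) or CT3 (0.0691). Btg2, an antiproliferative gene that is also an immediate early gene, fell from 571 ± 152 to 253 ± 6.90 CPM (-1.18, SE 0.17, adjusted p = 0.00414).

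Of 21 tested regulators and cofactors of p53, 1 was higher and 4 were lower, with a median of -0.25. Daxx, a histone chaperone that is also interferon-inducible, rose from 84.3 ± 13.8 to 215 ± 45.0 CPM (log2 fold change 1.35, SE 0.17, adjusted p = 0.00219). The p53-binding repair protein gene Trp53bp1 (-0.42, SE 0.08, adjusted p = 0.0144), the acetyltransferase gene Crebbp (-0.43, SE 0.10, adjusted p = 0.0268), the deacetylase gene Sirt1 (-0.35, SE 0.09, adjusted p = 0.0332) and Mdm4 fell. Trp53bp1 was no longer called without MM3 (0.0528), MM4 (0.0574) or CT3 (0.0753) and with the effective-length offset (0.410). Crebbp was no longer called without MM3 (0.0608), MM4 (0.0956), CT3 (0.0944) or CT5 (0.0762) and with that offset (0.0537). Sirt1 kept its call when MM5 was left out (0.0359) and in no other fit of 5 libraries, with adjusted p of 0.0903 without MM3, 0.0887 without MM4, 0.134 without CT3, 0.0773 without CT5 and just over the threshold without CT1.

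Paralogues of the 10 genes gave 2 lower of 10 tested and none higher (median -0.04). Mdm4, the Mdm2 relative that masks p53, was at 443 ± 20.5 CPM in myeloma and 549 ± 3.86 CPM in control libraries, a difference of -0.31 on the log2 scale (SE 0.08, adjusted p = 0.0403). Leaving out any 1 of the 6 libraries ended the call (adjusted p 0.0622 for MM5, the lowest, and 0.134 for CT3, the highest), as did the effective-length offset (0.0656). Sesn3, a FOXO-controlled sestrin, was at 233 ± 16.7 against 310 ± 22.5 CPM (-0.41, SE 0.09, adjusted p = 0.0252). It was no longer called without MM3 (0.0584), MM4 (0.0731), CT3 (0.102) or CT5 (0.0780).

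The other polo-like kinases did not pass by edgeR's test, with Plk1 at a log2 fold change of -0.05 (SE 0.45), Plk3 at 0.12 (SE 0.21) and Plk4 at -0.01 (SE 0.24). Each turned sign in some fits of 5 libraries, Plk1 without MM3 (0.26) or CT5 (0.33), Plk3 without CT5 (-0.11) and Plk4 without MM3 (0.12) or CT3 (0.22). Sesn2 (-0.00044, SE 0.20), Ccng2 (-0.03, SE 0.09), Gadd45g (0.25, SE 0.34) and Cdkn1c, which encodes p57 (-0.37, SE 0.39), did not pass either. Phlda1 stood at -0.75 (SE 0.24, adjusted p = 0.0813) and passed without MM5 (0.00737), with DESeq2 (0.0163) and with library sizes alone (0.0453). It also passed with no filter (1.37e-05), in a fit that gave it an SE of 0.15.

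Of 17 tested brakes on division, most of them outside the p53 pathway, 7 were lower and none higher, with a median of -0.33. Over all genes 4.69% passed as lower, and this list too was chosen with earlier results known. Foxo1, the transcription factor that keeps T cells quiescent and raises Cdkn1b, fell from 341 ± 18.0 to 224 ± 8.67 CPM (log2 fold change -0.60, SE 0.08, adjusted p = 0.00330). Btg2, already given, the retinoblastoma gene Rb1 (-0.53, SE 0.10, adjusted p = 0.0138) and the antiproliferative gene Tob1 (-1.10, SE 0.23, adjusted p = 0.0185) also fell. Rb1 was no longer called without MM3 (0.0532), MM4 (0.0619) or CT3 (0.0684) and with the effective-length offset (0.106), and Tob1 without MM3 (0.0656), MM4 (0.0786), CT3 (0.0744) or CT5 (0.0645). Foxo1, Btg2 and Daxx passed whichever library was left out.

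Of 25 proliferation genes, which mark cells in cycle, none passed in either direction by edgeR's test, and their median was 0.05, with 12 of 25 below 0. DESeq2 and limma-voom called none either, and at an unadjusted p of 0.05 each of the 3 tools had 1 higher (Mcm6) and none lower. By edgeR's test Mki67, the usual marker of cycling cells, was at -0.17 (SE 0.28, adjusted p = 0.744). The replication helicase gene Mcm6 was at 0.30 (SE 0.09, adjusted p = 0.0633). Mki67 was at 68.3, 76.3 and 162.6 CPM in MM3, MM4 and MM5 against 106 to 124 CPM in controls. MM3 and MM4 thus lay below all controls and MM5 above them. The topoisomerase gene Top2a split likewise (23.0, 27.7 and 84.9 against 32.6 to 66.2 CPM), whereas all myeloma values of Mcm6 lay above the controls. These genes were named after their values were seen.

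Immediate early genes, which are switched on quickly by stimulation and to which Plk2 also belongs, had 10 of 25 lower and 1 higher. Their median was -0.89. Btg2 is counted here again, 4.69% of all genes passed as lower, and this list was chosen with earlier results known. Ppp1r15a, a stress-induced regulator of translation, was at 92.9, 70.6 and 160.4 CPM in myeloma and 429, 815 and 396 CPM in control libraries, a log2 difference of -2.34 (SE 0.35, adjusted p = 0.00529). It lost its call with robust dispersion (0.0514). The mRNA decay factor gene Zfp36 also fell (-1.12, SE 0.18, adjusted p = 0.00746), and the nuclear receptor gene Nr4a3 rose (1.36, SE 0.22, adjusted p = 0.00807). All 3 passed whichever library was left out.

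Of 10 kinases that Gadd45 proteins act through or near, 1 was higher and 3 were lower, with a median of 0.02. Map3k4, the kinase Gadd45 proteins bind, was lower (log2 fold change -0.47, SE 0.10, adjusted p = 0.0201), as were Map2k6 (-0.70, SE 0.19, adjusted p = 0.0491) and Map2k7 (-0.34, SE 0.09, adjusted p = 0.0451), and Map2k3 was higher (0.69, SE 0.14, adjusted p = 0.0162). Map3k4 was no longer called without MM3 (0.0589), MM4 (0.0724), CT3 (0.0503) or CT5 (0.0654), and Map2k3 without the same libraries (0.0616, 0.0568, 0.0757 and 0.0646). Map2k7 passed when MM5 was left out (0.0224) and in none of the other 5 such fits, whose lowest adjusted p was 0.0539 (CT1 left out) and highest 0.160 (CT3 left out). Map2k6 passed in none of the 6, whose lowest was 0.0689 (MM5 left out) and highest 0.174 (CT3 left out), nor with the effective-length offset (0.0661).

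**Figure D5:**
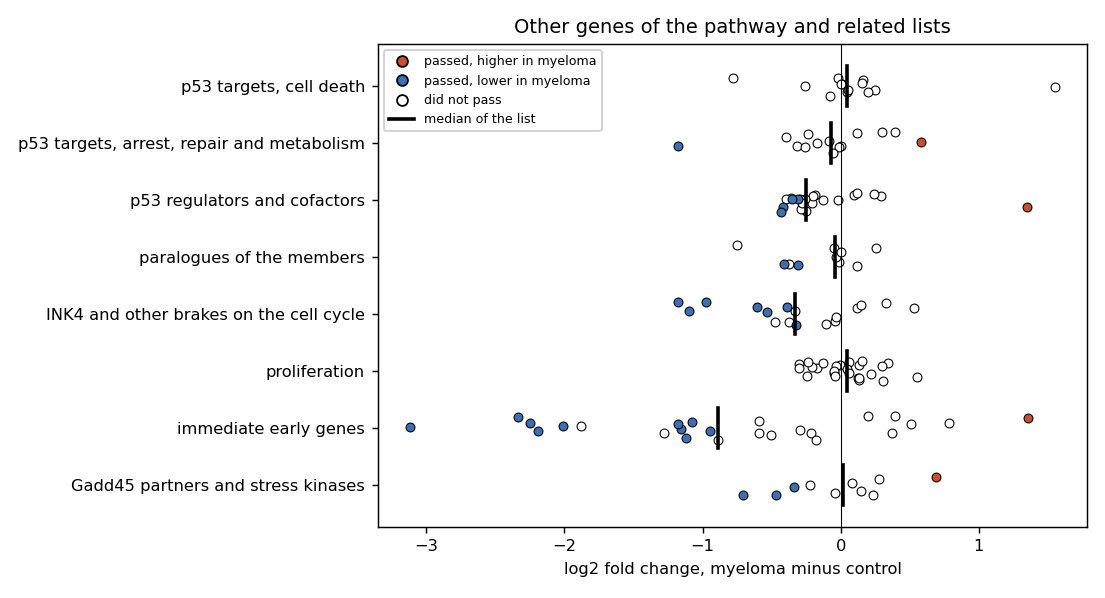
Log2 fold change (myeloma minus control) of each tested gene in 8 lists, 1 point per gene, with the median of the list as a bar. Coloured points passed the 0.05 threshold. Medians lie at 0.04 for cell death targets of p53 and 0.05 for proliferation genes, -0.33 for brakes on the cell cycle and -0.89 for immediate early genes, and some genes stand in more than one list.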

How the data were processed

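RNA came from flow-sorted cells through the RNeasy Micro and NEBNext Ultra kits, per the labels' protocols. Picard, STAR, RSEM, DESeq2 and build mm10 are named in the submitters' processing notes, without versions or settings. The 6 deposited tables hold the authors' RSEM expected counts (reads estimated per gene, not normalized), with TPM and FPKM scaled for length and total, per the file headers. TPM gave levels only and FPKM was not used. Names in the tables are in capitals, and 47224 of 47643 gene IDs matched a reference symbol without their version.

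Expected counts were rounded to whole numbers, and genes were kept by filterByExpr (at least 10 counts, in total at least 15). TMM factors set the scale, and edgeR 4.0.16 under R 4.3.3 gave the quasi-likelihood test (glmQLFTest after glmQLFit) with Benjamini-Hochberg adjustment over 13235 genes and a threshold of 0.05. The biological coefficient of variation was 0.202. The SE is the log2 fold change divided by the square root of F. CPM uses the TMM-scaled library sizes. The test was also tested on simulated data.

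The 10 genes and all lists were chosen with earlier results of these data known. Named are the 10 genes, up to 4 called genes with the smallest p per list, every tested paralogue, and the 5 genes closest to Plk2 with a mean of at least 5 CPM (log2 CPM with a prior count of 2). Exceptions are said to be so. Marker levels are sums of CPM with no test. Alternatives were other scaling factors, no filter or at least 1 CPM in 3 libraries, DESeq2 1.42.0, limma-voom (limma 3.58.1), robust dispersion, an effective-length offset, 444 immunoglobulin, haemoglobin and mitochondrial genes left out, the replicate number as a block, and each library left out.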

Additional observations from a re-analysis of the deposited data

How the results depend on the processing

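Of the 10 genes, 3 were called lower and none higher with upper-quartile or RLE factors, with library sizes alone, with DESeq2, with no filter or the 1 CPM filter, and without immunoglobulin, haemoglobin and mitochondrial genes. The number lower was 2 with limma-voom, robust dispersion and the effective-length offset, and 1 to 3 when each library was left out. None was higher in any of these fits. With the replicate number as a block none of the 10 was called lower (Cdkn1b -0.51, Plk2 -3.42, Gadd45a -0.84), and over all genes 362 were higher and 142 lower. The groups share 2 replicate numbers, so this contrast rests on 4 libraries. Deviations of same-numbered libraries correlated at 0.03 and 0.10, with nothing in the labels to pair them. Beyond the 10 genes, the block also ended the calls of Rps27l, Trp53bp1, Crebbp, Sirt1, Sesn3, Mdm4, Rb1, Map3k4, Map2k7, Map2k6 and Scaf11. Btg2, Daxx, Foxo1, Tob1, Ppp1r15a, Zfp36, Nr4a3 and Map2k3 kept theirs. Over all genes, with no filter 1337 were higher and 1102 lower, with library sizes alone 1004 were lower, with the effective-length offset 405 were lower, and with each library left out 331 to 836 were higher and 123 to 546 lower. Fewer libraries tend to give fewer calls, but these fits of 5 libraries also differed by the library left out. Without CT3, 331 genes were higher and 123 lower, and without MM5, 836 were higher and 546 lower. The fit with no filter changed the SEs, to 0.20 from 0.78 for Plk2, 0.15 from 0.24 for Phlda1 and 0.11 from 0.08 for Cdkn1b. Its adjusted p values are thus not comparable with those of the other fits.

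Near 0 the sign changed without a call. Trp53 was at 0.00068 with limma-voom and 0.046 with the replicate block, and ran from -0.053 to 0.017 with each library left out. Ccng1 was at -0.020 with library sizes alone and -0.011 with the block. With limma-voom Cdkn1a was at 0.031, Plk4 at 0.0093 and Sesn2 at 0.025. With each library left out, ranges were -0.63 to 0.38 for Cdkn1a, -0.48 to 0.37 for Gadd45b, -0.44 to 0.33 for Plk1, -0.11 to 0.28 for Plk3, -0.15 to 0.22 for Plk4, -0.083 to 0.016 for Ccng2, -0.082 to 0.51 for Gadd45g and -0.18 to 0.17 for Sesn2. Cdkn1a, Plk2 in myeloma and Phlda3 rest on few counts, which limits their precision.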
